A study of Mus musculus with 3 samples.

Results

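The E2F transcription factors were followed here at the level of their transcripts, in RNA-seq of pre-B cells sorted from mouse bone marrow. The family was taken as its 8 mouse genes, E2f1 to E2f8, chosen by symbol. All 8 were found, by Entrez number, among the 26286 genes of the deposited table, and all 8 passed the filter on low counts. The data were 3 libraries of a single group, so the measurements are levels and the spread between libraries. The mice were bitransgenic, CAG-rtTA3;TRE-GFP-shLuc.1309, and received doxycycline (Dox) for 3 days, which switches on a control short hairpin RNA tied to GFP. The broadly active CAG promoter drives the rtTA3 transactivator, so the hairpin was not limited to B cells by its promoter. Cells were sorted as GFP+, B220+, CD25+, Kit- and IgM-, a surface pattern of pre-B cells that does not by itself separate dividing from resting cells.

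E2F proteins bind the promoters of genes for DNA replication and cell cycle entry. E2F1, E2F2 and E2F3 are classed as activators and bind DNA with a DP partner. The pocket proteins RB, p107 and p130 hold E2Fs in check until cyclin-dependent kinases phosphorylate them. E2F4 and E2F5 act mainly with pocket proteins as repressors, and E2F6 represses without them, in a Polycomb complex. E2F7 and E2F8 are atypical: they bind DNA without a DP partner and repress activator E2F genes and their targets. In the marrow, pre-B cells first divide and then leave the cycle while the light chain genes rearrange, and mice that lack both E2F1 and E2F2 have defects in blood cell formation.

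Several E2F genes are known targets of E2F proteins, so the windows around their start sites are shown where they hold the letters of a classical E2F site. Windows of 300 bases, from 250 before to 50 after a start site, came from RefSeq on GRCm38.p6. They were matched for 6 of the 8 genes, in 8 windows, and not for E2f4 or E2f5. The letters searched on both strands were TTTCCCGC, TTTCGCGC, TTTGCCGC and TTTGGCGC. A match stood in 3 of the 8 windows, and in 2.26% of all 32851 promoter windows of that length, a share not matched for base composition. The windows with a match belonged to E2f2 (chr4:136172024-136172323, plus strand), E2f3 (chr13:29986014-29986313, minus strand) and E2f7 (chr10:110745189-110745488, plus strand), and capitals mark the match.
E2f2: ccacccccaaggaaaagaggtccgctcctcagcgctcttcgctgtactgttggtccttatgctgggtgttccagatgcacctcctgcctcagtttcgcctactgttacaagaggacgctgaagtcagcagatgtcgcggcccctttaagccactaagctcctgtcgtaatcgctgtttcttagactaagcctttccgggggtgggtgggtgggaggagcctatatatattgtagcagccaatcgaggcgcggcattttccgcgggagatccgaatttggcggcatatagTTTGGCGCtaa
E2f3: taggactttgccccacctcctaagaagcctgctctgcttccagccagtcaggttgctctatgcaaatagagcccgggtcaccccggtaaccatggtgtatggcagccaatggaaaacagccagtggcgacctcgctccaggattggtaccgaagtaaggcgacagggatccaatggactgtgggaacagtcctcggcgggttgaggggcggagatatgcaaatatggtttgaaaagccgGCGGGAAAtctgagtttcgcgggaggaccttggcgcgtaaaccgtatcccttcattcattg
E2f7: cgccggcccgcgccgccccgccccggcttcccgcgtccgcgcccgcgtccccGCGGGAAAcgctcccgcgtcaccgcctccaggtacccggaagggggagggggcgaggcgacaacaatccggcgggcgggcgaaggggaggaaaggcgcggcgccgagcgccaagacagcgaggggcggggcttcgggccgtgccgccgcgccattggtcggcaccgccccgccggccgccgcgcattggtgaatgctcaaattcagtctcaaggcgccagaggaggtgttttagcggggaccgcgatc
In E2f2 the match is TTTGGCGC on the strand shown, starting 39 bases after the start site. In E2f3 and E2f7 the capitals are TTTCCCGC read on the other strand, beginning at -10 in E2f3 and at -198 in E2f7. The windows of E2f1, E2f6 and E2f8, and a second window each of E2f2 and E2f3, held none of these letters. The E2f1 window belongs to a start site inside the annotated gene. Binding was not measured, so these are matches of letters only.

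Replicates 1, 2 and 3 had 12418054, 12021576 and 32086649 counts in total, so a gene at the same level has more counts and less counting error in replicate 3. Replicate 1 stood apart by 22609 counts of Xist, an RNA of female cells, against 94 in replicate 2 and 70 in replicate 3. Whether the libraries are from different mice is not stated in the labels, though by Xist replicate 1 differs in sex from replicates 2 and 3. The p-values measure the spread between these samples, which may be technical in part. All 10 B-lineage markers on a fixed list exceeded 1 RPKM (RPKM divides a count by the length of the gene and by the depth of the library) in every library, and their summed level was 4909, 5057 and 4499 RPKM in replicates 1, 2 and 3. Neutrophil markers were not absent: all 10 exceeded 1 RPKM, with a sum of 1358, 1638 and 2433 RPKM. The sums were 7.89 to 9.18 RPKM for 8 erythroid markers, 10.2 to 12.6 RPKM for 6 monocyte and macrophage markers and 4.31 to 5.44 RPKM for 8 T and NK markers. The erythroid receptor gene Epor had 3, 0 and 14 counts in replicates 1, 2 and 3.

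E2f2 was by far the most abundant E2F transcript. E2f2 (Entrez 242705) encodes an activator and had 13088, 10319 and 34133 counts in replicates 1, 2 and 3, or 221, 181 and 225 RPKM. Its mean was 209 ± 24.4 RPKM (SD, n = 3), which placed it 268th of the 17423 genes with any count, in the upper 1.54%. Replicate 2 was low, and the other two libraries lay close together. E2f1 (Entrez 13555), the activator best known for driving both S phase entry and cell death, stood at 21.3, 14.6 and 25.1 RPKM, a mean of 20.3 ± 5.34 RPKM. The E2f1 counts were 654, 431 and 1976, with replicate 2 again the lowest. E2f3 (Entrez 13557), which is transcribed from a pair of promoters into a long and a short form, was much lower, at 7.80, 7.48 and 8.48 RPKM. Gene counts do not separate these forms. Within each library E2f2 exceeded E2f1 by 3.36 ± 0.23 on the log2(RPKM + 0.5) scale, 10.3-fold, and E2f3 by 4.63 ± 0.12, 24.8-fold, and the ranges of the 3 activators over the libraries did not overlap.

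Among the repressors, E2f4 stood far above E2f5 and E2f6. E2f4 (Entrez 104394), the main partner of pocket proteins in resting cells, had 71.7, 62.3 and 71.1 RPKM, a mean of 68.4 ± 5.25 RPKM. Replicates 1 and 3 were nearly level and replicate 2 was lower. E2f6 (Entrez 50496), the Polycomb-linked repressor, had 8.10, 6.60 and 8.67 RPKM. E2f5 (Entrez 13559), the close relative of E2f4, had the lowest level of the family, at 6.46, 5.62 and 5.26 RPKM from 141, 118 and 294 counts. It was the only member whose lowest level was in replicate 3. E2f4 exceeded E2f5 by 3.46 ± 0.16 on the log2 scale, 11.0-fold, and E2f6 by 3.06 ± 0.09, 8.34-fold. In the GENCODE annotation E2f5 shares 26 exon bases with Rbis on the opposite strand, and no source used here states whether counting used strand.

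Both atypical genes were expressed, E2f8 more than E2f7. E2f8 (Entrez 108961) had 41.7, 40.1 and 52.9 RPKM, a mean of 44.9 ± 6.99 RPKM, with replicate 3 above both other libraries. E2f7 (Entrez 52679) had 11.5, 9.32 and 11.9 RPKM, a mean of 10.9 ± 1.39 RPKM, and replicate 2 was the low library. The difference in level was 1.99 ± 0.15 on the log2 scale, 3.97-fold. In the GENCODE annotation E2f8 shares 610 of its 5443 exon bases, 11.2%, with Gm2788 on the opposite strand. Without a stated strand setting, reads of that stretch cannot be assigned to either gene. The deposited length of E2f8 is 3691 bases, so the share of the counted gene that overlaps is not known. In RefSeq the span of each atypical gene also overlaps a gene not found in that annotation, for which shared exon bases were not counted.

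**Figure D1:**
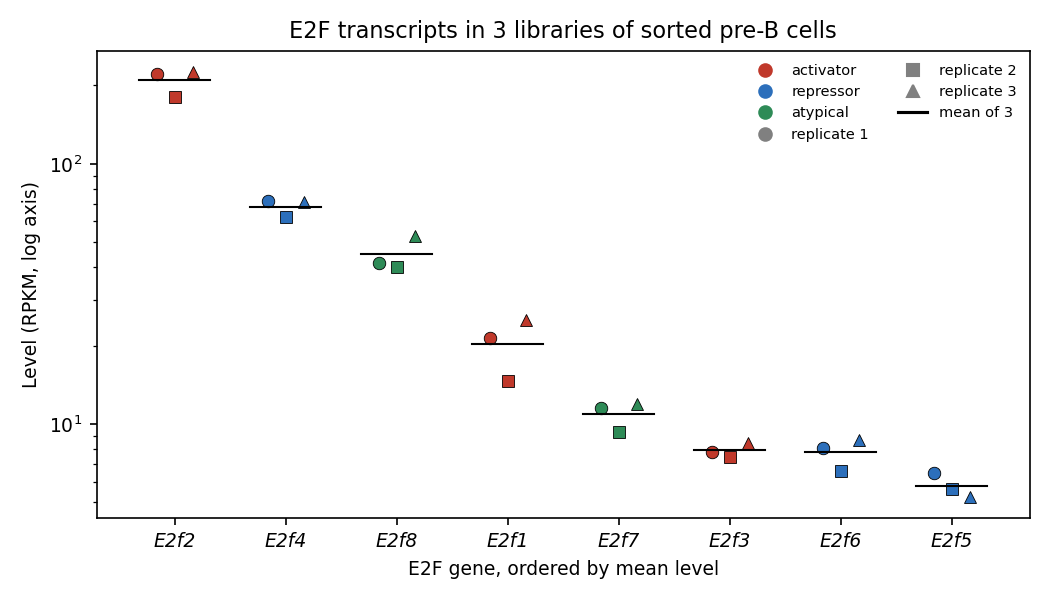
Level of each E2F gene in RPKM on a log axis, with genes ordered by mean, symbols for replicates 1 to 3, colors for the class of E2F and a line at the mean of the 3 libraries. E2f2 lies at 181 to 225 RPKM and E2f5 at 5.26 to 6.46 RPKM, while E2f3 and E2f6 overlap.

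Ordered by mean level the family ran E2f2, E2f4, E2f8, E2f1, E2f7, E2f3, E2f6 and E2f5. The order was the same without replicate 1. The ranges over libraries did not overlap for 6 of the 7 neighbouring pairs in this order. E2f2 exceeded E2f4 by 1.603 ± 0.064 on the log2 scale, E2f4 exceeded E2f8 by 0.61 ± 0.18 and E2f8 exceeded E2f1 by 1.15 ± 0.25. Further down, the step was 0.84 ± 0.21 from E2f1 to E2f7, 0.43 ± 0.12 from E2f7 to E2f3 and 0.40 ± 0.24 from E2f6 to E2f5. E2f3 and E2f6 did not differ beyond their spread, with a difference of 0.03 ± 0.12, and E2f6 was the higher in replicates 1 and 3 and the lower in replicate 2. For the other 6 steps an exact sign-flip test over libraries gave a two-sided p of 0.25 each, the smallest that 3 libraries allow, so no such step could pass 0.05. All 8 genes exceeded 1 RPKM in every library, which 64.0% of the 17423 genes with a count did. The family median was 3.93 ± 0.29 on the log2 scale, and that of every gene with any count was 2.57 ± 0.01. All 8 genes had passed the filter on low counts, and the 12147 genes that passed it are the closer comparison. Of these, 90.6% reached 1 RPKM in every library, and their median was 3.78 ± 0.01, within the spread of the family median.

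As a share of the summed RPKM of the 8 genes, E2f2 alone took 56.8%, 55.4% and 55.1% in replicates 1, 2 and 3. The activators together took 63.2 ± 1.07%, the repressors 21.9 ± 1.01% and the atypical genes 14.9 ± 1.13% (SD, n = 3). Activator transcripts exceeded repressor transcripts by 1.53 ± 0.08 on the log2 scale, 2.88-fold. Without E2f2 the sign of that difference was the opposite, at -1.54 ± 0.20, since E2f1 and E2f3 summed to less than the repressors in every library. RPKM compares transcripts per length and says nothing of protein levels.

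For each member, the other gene nearest in level over the 3 libraries was also looked up among 11596 tested genes with a symbol. Sfpq, a splicing factor gene, was nearest to E2f2, with 220, 182 and 234 RPKM in replicates 1, 2 and 3 and no library more than 0.053 apart on the log2 scale. The nearest to E2f4 was the chaperonin subunit gene Cct3, within 0.032. Ldha, a lactate dehydrogenase gene, was nearest to E2f8 (0.061), and the ubiquitin ligase gene Nedd4 to E2f1 (0.061). For E2f7, E2f3, E2f6 and E2f5 the nearest were Larp1b (0.033), Cdyl (0.030), Hras (0.032) and Nqo2 (0.025). Such matches are easily found over 3 libraries: within 0.1 in every library there were from 3 genes for E2f1 to 32 for E2f4.

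The spread between libraries was set against counting error next. E2f1 had the largest coefficient of variation of the family, 26.2%, where counting alone would give 3.81%. E2f8 followed with 15.6% against 2.04%, and E2f6 with 13.7% against 5.91%. E2f2, the gene with the most counts, varied by 11.7% against 0.822%. E2f3 (6.45% against 4.05%) and E2f5 (10.7% against 7.95%) lay closest to counting error.

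**Figure D2:**
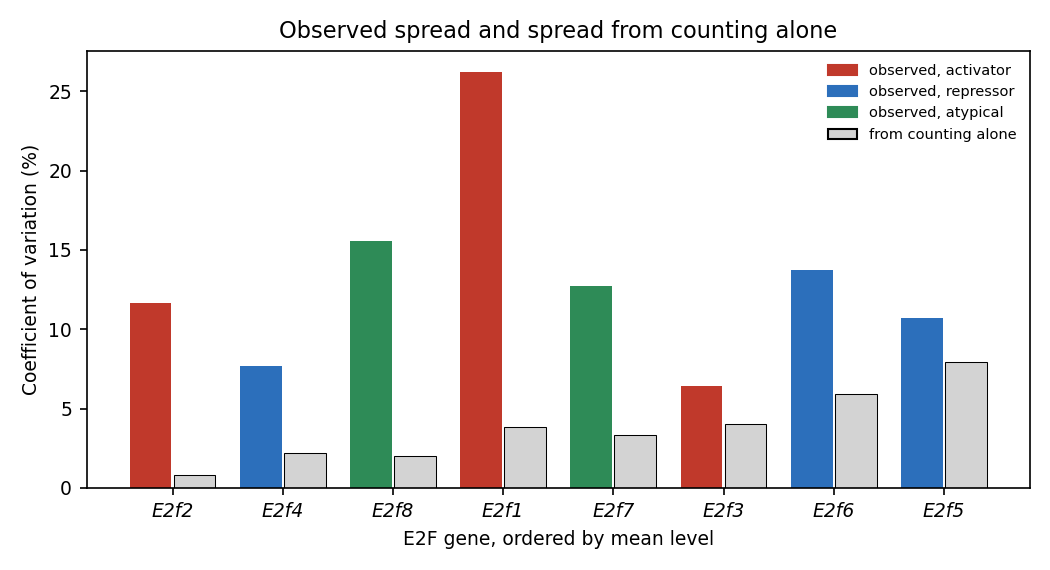
Coefficient of variation of RPKM over the 3 libraries for each E2F gene (colored bars) beside that expected from counting alone (grey bars), in percent, with genes ordered by mean level. E2f1 reaches 26.2%, and the bars of E2f3 and E2f5 come closest to their counting error.

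In a chi-square test of counts against Poisson noise, adjusted by Benjamini-Hochberg over all 12147 genes tested, 6 of the 8 members varied between libraries, as did 54.6% of all genes. The share of the members is therefore read as no more than the background. Adjusted p was 7.13e-83 for E2f2, 3.73e-33 for E2f8, 3.67e-23 for E2f1, 2.58e-06 for E2f7, 6.78e-05 for E2f4 and 0.0075 for E2f6. E2f3 (0.0682) and E2f5 (0.190) did not pass, and E2f5 has the fewest counts. Only E2f1 passed whichever library was left out. Without replicate 2 the calls for E2f2, E2f4, E2f6 and E2f7 were lost (adjusted p of 0.541, 0.707, 0.576 and 0.654), which left 2 of 8, and 32.8% of all genes tested then passed. Without replicate 3 those for E2f8 (0.435) and E2f6 (0.102) were lost, which left 4 of 8, beside 25.8% of all genes. Without replicate 1 E2f3 passed as well (0.0459), for 7 of 8 beside 43.4% of all genes. With replicate 3 thinned to the smallest total, in a single random draw, E2f6 was lost (0.147).

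The libraries ordered the members in much the same way. Levels were highest in replicate 3 for 6 of the 8 genes, where 37.5% of all genes tested were. Those 6 genes, E2f1, E2f2, E2f3, E2f6, E2f7 and E2f8, were also lowest in replicate 2, an order shared by 23.2% of all genes tested. Replicate 3 exceeded replicate 2 by 1.72-fold for E2f1, 1.32-fold for E2f8, 1.31-fold for E2f6, 1.28-fold for E2f7, 1.24-fold for E2f2 and 1.13-fold for E2f3. E2f4 was highest in replicate 1 by a small margin over replicate 3. The share of E2f1 in the family sum moved with this order, at 6.15% in replicate 3, 5.47% in replicate 1 and 4.46% in replicate 2. The members share their libraries and are not independent of each other.

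Replicate 3 was processed with CASAVA 1.8.0, the Illumina base call software, and replicates 1 and 2 with 1.8.2, the only technical label that differs. This comparison of 1 library with 2 cannot tell the version from the library. By Xist, replicates 1 and 2, whose spread the comparison rests on, also differ in sex. In edgeR's quasi-likelihood test 0 of the 8 members passed an adjusted p of 0.05, against 9 of 12147 genes, 0.0741%. DESeq2 called 36 genes and 0 members, and edgeR called 0 genes when all genes with a count were tested. At an unadjusted p under 0.05, 2 of the 8 members were higher in replicate 3, as were 5.44% of all genes tested. These were E2f1, with a log2 fold change of 0.48 for replicate 3 over replicates 1 and 2 (edgeR, adjusted p = 0.513), and E2f8, with 0.37 (adjusted p = 0.397). The E2f1 value was 0.78 without replicate 1 and 0.24 without replicate 2, and that of E2f8 was 0.40 and 0.34, with no test in either case. The other members had changes from -0.20 for E2f5 to 0.24 for E2f6, and the median of the 8 was 0.18, against 0.01 for all genes tested.

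The partners and regulators of E2F proteins were described from 10 lists with 69 genes, all of them matched. Of these, 64 were tested, 0 passed edgeR's test of replicate 3 against the others (23 were higher in replicate 3 at an unadjusted p under 0.05, beside 5.44% of all genes tested) and 0 passed DESeq2's. Of the pocket protein genes, Rb1, which encodes RB, stood at 56.5 ± 4.37 RPKM, Rbl1 (p107) at 30.3 ± 3.95 RPKM and Rbl2 (p130) at 20.9 ± 2.92 RPKM. Of the DP genes, Tfdp1 had 40.3 ± 5.20 RPKM and Tfdp2 23.0 ± 1.44 RPKM (SD, n = 3), so that E2f2 alone had a higher level than both together in each library. Upstream, the list of D-type cyclins, their kinases and the inhibitors of cyclin-dependent kinases was led by Ccnd3, a D-type cyclin, at 293 ± 72.0 RPKM and the inhibitor Cdkn2d at 113 ± 10.6 RPKM. Its lowest member was Ccnd1, another D-type cyclin, at 1.06 ± 0.38 RPKM. These levels place the kinase side and its inhibitors in the same libraries, without separating cells. In bulk RNA, fewer cells of a type and less RNA per cell cannot be told apart.

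Genes that E2F proteins are known to activate spanned a wide range of levels. Of 5 genes of S phase cyclins, their kinase and its activation, the cyclin A2 gene Ccna2 (181 ± 41.4 RPKM) and Cdk2 (53.0 ± 7.85 RPKM) were the highest and the cyclin E1 gene Ccne1 (11.2 ± 1.68 RPKM) the lowest. Among 16 genes of origin licensing and the replication fork, the sliding clamp gene Pcna (120 ± 27.7 RPKM) and the helicase subunit gene Mcm6 (85.2 ± 18.3 RPKM) led, and the origin recognition gene Orc1 was lowest, at 2.77 ± 0.23 RPKM. Of 5 nucleotide synthesis genes, the ribonucleotide reductase genes Rrm2 (165 ± 21.7 RPKM) and Rrm1 (89.1 ± 14.6 RPKM) were far above the thymidylate synthase gene Tyms (5.93 ± 1.10 RPKM). The 6 death genes had a list median of 2.35 ± 0.20 on the log2(RPKM + 0.5) scale, against 4.95 ± 0.23 for the licensing and fork genes and 2.57 ± 0.01 for every gene with a count, and Apaf1, which encodes the apoptosome scaffold, stood at 29.0 ± 0.25 RPKM. Trp73, a p53 relative that E2F1 is known to induce, had 1, 0 and 3 counts in replicates 1, 2 and 3.

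The partners of the repressors were expressed as well. The MuvB core works with E2F4 and p130 in resting cells and with B-Myb in cycling cells, and in the list of its genes with that of B-Myb, Rbbp4 (107 ± 8.76 RPKM) and Lin37 (28.0 ± 0.64 RPKM) were highest and Lin54 (8.88 ± 0.95 RPKM) lowest. All 12 genes of the Polycomb complex PRC1.6, which contains E2F6, exceeded 1 RPKM in every library, with Hdac2 (55.1 ± 1.27 RPKM) and Max (46.3 ± 1.498 RPKM) highest. Pcgf6, the subunit that defines this complex, was the lowest, at 3.71 ± 0.39 RPKM. Of 5 germline genes that E2F6 is known to repress in mouse cells, Tuba3a, Tuba3b and Slc25a31 had 0 counts in each library. A count of 0 allows up to 0.165 RPKM for Tuba3a, 0.159 RPKM for Tuba3b and 0.118 RPKM for Slc25a31 (3 counts in the shallowest library, counting error only). Smc1b had 0, 1 and 4 counts, and the cohesin gene Stag3 was the exception at 4.09 ± 0.86 RPKM.

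**Figure D3:**
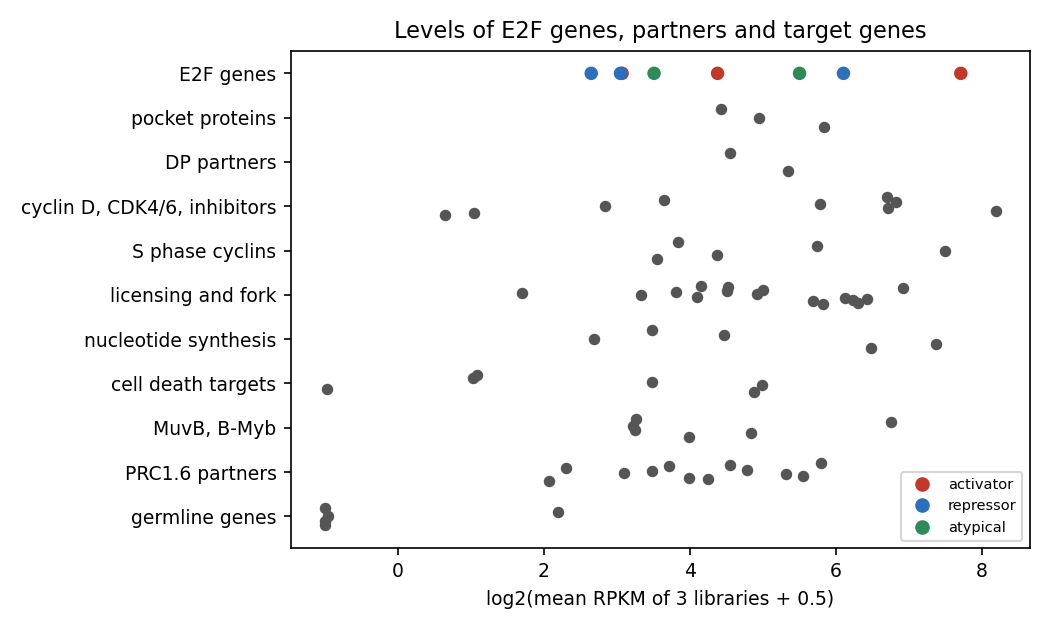
Each point is a gene, placed by log2(mean RPKM of 3 libraries + 0.5), for the E2F genes in the top row and for the lists of partners, regulators and targets under it. E2f2 lies at the right end of the E2F row, above every gene of the replication list, and the germline genes other than Stag3 lie at the left edge.

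Most target genes had the order of libraries seen for most E2F genes. Of the 26 cell cycle targets (S phase cyclins, licensing and fork, nucleotide synthesis), 26 were highest in replicate 3 and 23 were also lowest in replicate 2, against 37.5% and 23.2% of all genes tested. The lists were chosen with earlier results of these data known, and their genes share the 3 libraries. The counts are therefore a description and not an independent test. The median shift of the licensing and fork genes from the gene's own mean was 0.27 in replicate 3, -0.02 in replicate 1 and -0.24 in replicate 2 on the log2 scale. For the 8 E2F genes it was 0.12 in replicate 3, 0.08 in replicate 1 and -0.18 in replicate 2. In edgeR's test of replicate 3 against the others 0 of the 26 targets passed after adjustment, although 17 were higher in replicate 3 at an unadjusted p under 0.05, where 5.44% of all genes tested were, and their median log2 fold change was 0.40. DESeq2 called 0 of the 26. Of the 12 genes of PRC1.6, 5 were highest in replicate 3 and lowest in replicate 2.

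Markers of other cells moved between the same libraries. Of the 10 neutrophil markers, 8 were highest in replicate 3, but 0 had the order of the E2F genes, and 8 were lowest in replicate 1. Of all 12147 genes tested, 37.5% were highest in replicate 3, 23.2% had that order and 3541 genes were lowest in replicate 1. The median shift of the neutrophil markers was 0.41 in replicate 3, -0.36 in replicate 1 and -0.07 in replicate 2. B-lineage markers went the other way, with a median shift of -0.09 in replicate 3, and 8 of 10 were lowest there. Of the 12147 genes tested, 4108 were lowest in replicate 3. The part of these markers in the E2F differences was not tested.

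**Figure D4:**
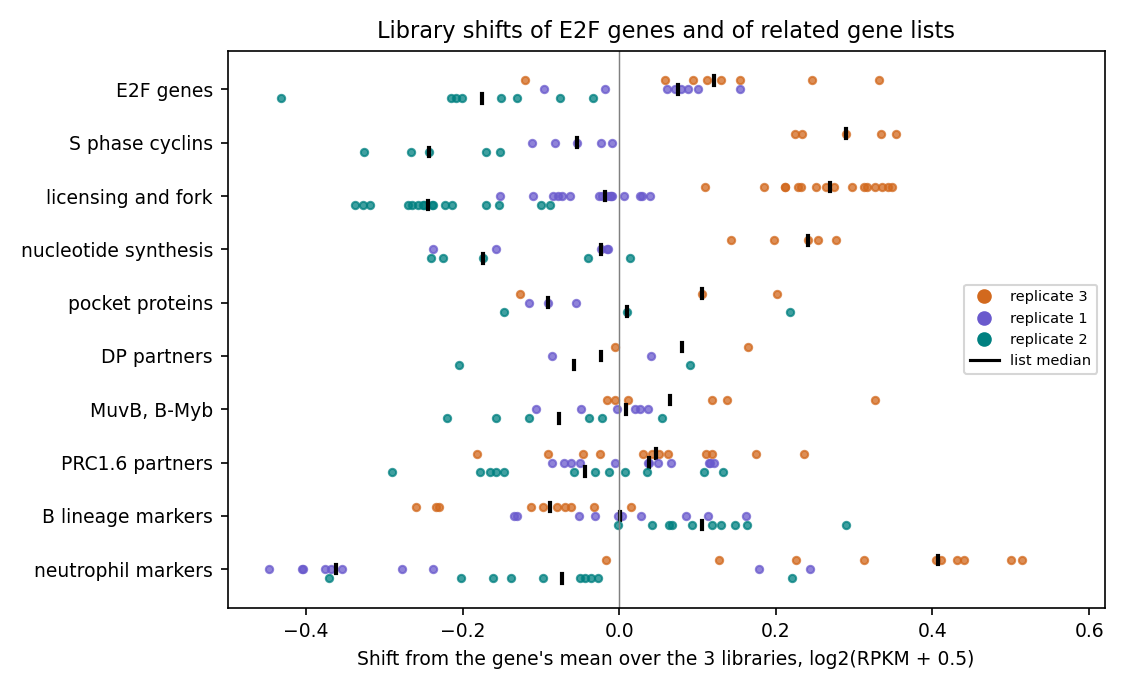
Shift of each tested gene from its own mean over the 3 libraries, in log2(RPKM + 0.5), with a row per list, orange points for replicate 3, violet for replicate 1 and teal for replicate 2, and a bar at the list median. In the E2F row the medians are 0.12, 0.08 and -0.18 in replicates 3, 1 and 2, and the neutrophil row has replicate 1 at the low end, with a median of -0.36.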

How the data were processed

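RNA was measured in 3 libraries of 1 group, numbered by the sample titles. The deposited files hold raw counts per Entrez gene, made by the authors with featureCounts on mm9, per the submitters' processing notes; CASAVA versions are per the labels. Other values in the deposited files are gene lengths in bases. No source used here names the aligner, the annotation or the strand setting. The series table and the sample files held the same counts. Symbols of 24176 identifiers came from RefSeq on GRCm38.p6, for names only; the 2110 without one took 2.84% to 2.97% of the counts.

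Levels are RPKM from counts, deposited lengths and TMM-scaled totals (factors 0.996 to 1.004), with a pseudocount of 0.5 on the log2 scale. filterByExpr (minimum count 10, total 15) kept 12147 genes. Tests were glmQLFit and glmQLFTest in edgeR 4.0.16 (R 4.3.3), with DESeq2 1.42.0 as the alternative, and a chi-square test against Poisson counts. The edgeR and chi-square p-values were adjusted by Benjamini-Hochberg over all genes tested. DESeq2 adjusted its own with default settings, which can leave genes out of the adjustment. The chi-square and edgeR tests were tried on simulated counts, and DESeq2 was not. Named are all members, the 2 highest and the lowest gene of each list, all genes of lists of at most 3 genes, and the nearest gene for each member. Not every gene that this rule picks is reported here. Xist, Epor, Rbis, Gm2788 and the rest of the germline genes were added after their values were seen. Members and lists were chosen with earlier results of these data known. Figures were drawn with matplotlib 3.10.9.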

Additional observations from a re-analysis of the deposited data

How the results depend on the processing

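The level of each member moved by less than the spread between libraries with DESeq2 size factors and without scaling beyond total counts. So did the steps between neighbours and the excess of activator over repressor transcripts, also with TPM and with pseudocounts of 0.1 or 1. Scaling by library nearly cancels in a difference within a library, so the scaling settings and TPM could hardly move the steps or the excess. Leaving out each replicate in turn also moved all of these by less than that spread. That is no test, because with 3 libraries leaving out 1 always moves a mean by less than the SD. Leaving out each replicate in turn, the excess ranged from 1.49 to 1.57, and 6 to 7 of the 7 neighbouring pairs kept 1 sign. E2f3 and E2f6 changed places without replicate 2. The count of genes that varied beyond counting noise was 6637, and 3149 to 5600 when a replicate was left out; with replicate 3 thinned to the smallest total it was 5641, and E2f6 then no longer passed (adjusted p of 0.147), which left 5 members in place of 6. The 9 genes called between CASAVA versions became 0 with all genes with a count (1224 at an unadjusted p under 0.05) and 36 with DESeq2. The log2 fold change of E2f4 was 0.09, ranging from -0.012 without replicate 2 to 0.19 without replicate 1; leaving out replicate 1 or 2 leaves 1 library against 1, so those values have no test. The cause of these changes was not tested. No paired analysis was possible because there is 1 group. Depth limits E2f5 most, whose 118 counts in replicate 2 were the fewest of any member.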
